A study of Mus musculus with 4 samples.

Results

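The 9 genes of fatty acid oxidation and fasting metabolism followed here were measured in isolated mouse islets kept at low or high glucose: *Cpt1a*, *Cpt2*, *Acadvl*, *Acadm*, *Hadha*, *Ppara*, *Ppargc1a*, *Pdk4* and *Ucp2*. A gene was found by its symbol in the deposited expression table, and where several rows carried the symbol the row with the highest mean over the libraries was kept. All 9 genes were present, with 11 rows, in a table of 33923 entries for 24013 gene symbols. The second row of *Ppargc1a* repeated the first. The second row of *Ppara*, another transcript, was close to the first, with 0.0264 and 0.0278 RPKM at 2.8 mM glucose and 0.0155 and 0.0157 RPKM at 16.8 mM glucose.

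Islets were taken from adult C57bl6 males of 3 months, pooled, cultured overnight at 11 mM glucose, and then brought to 2.8 mM glucose for 2 h. After that the glucose was kept at 2.8 mM or raised to 16.8 mM, and 2 libraries were made from total RNA at each concentration, each from 100 islets. The time at the final concentration is in conflict. It is labelled as 2 h for both libraries at low glucose and as 12 h for both at high glucose, while the design text has 12 h for all. If the sample labels hold, time and glucose cannot be told apart. Since the islets came from a pool and nothing ties the replicates to separate animals, each p-value measures only the spread between these libraries. An islet holds beta, alpha, delta and other cells, and in such bulk RNA fewer cells of a type and less RNA per cell cannot be told apart.

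Long-chain fatty acids enter the mitochondrion through the carnitine shuttle, in which CPT1 on the outer membrane is the regulated step and CPT2 on the inner membrane restores the acyl-CoA. Chain-length-specific dehydrogenases such as ACADVL and ACADM and the trifunctional protein, whose alpha subunit is HADHA, then shorten the chain in the matrix. In fasting tissues such as liver and muscle the nuclear receptor PPARA and the coactivator PGC-1alpha (*Ppargc1a*) raise these enzymes together with PDK4, a kinase that shuts off pyruvate oxidation. In beta cells glucose oxidation drives insulin release, malonyl-CoA made from glucose inhibits CPT1, and UCP2 is an inner membrane carrier studied as a brake on ATP production.

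Expression was given as RPKM, reads scaled to the length of the gene and the depth of the library. The values stepped as whole reads over the full genomic span of a gene, introns included, and not over its exons, so a long gene has a low RPKM for its number of reads. Recovered depth ranged from 50800000 to 60700000 reads per library. Of 28047 distinct entries, 7867 reached a mean of 1 RPKM and entered a limma test on log2(RPKM + 0.5), a scale on which changes of low genes are understated. The median log2 fold change of all entries tested was -0.11, and the median log2 ratio of their mean RPKM was -0.13, so values at 16.8 mM were lower across these entries. Genes with a mean between 0.01 and 0.05 RPKM did not share this shift, with a median log2 ratio of 0.06. Summed RPKM of 8 beta cell markers moved the other way, with 22940 and 20590 at 2.8 mM against 43900 and 41150 at 16.8 mM, and their part in this shift was not tested. Most of this sum was *Ins2*, with a mean of 17040 RPKM at 2.8 mM and 28710 RPKM at 16.8 mM. Of the 8 markers 6 were called higher. *Slc2a2* (2.78 against 3.86 RPKM) and *Nkx6-1* (10.6 against 13.0 RPKM) were not called. Summed acinar and duct markers were 108.2, 305.5, 267.1 and 547.6 RPKM in low replicates 1 and 2 and high replicates 1 and 2, so they were higher in replicate 2 than in replicate 1 of each group and higher at 16.8 mM within each replicate number.

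The 9 genes spanned a wide range of levels. At 2.8 mM glucose the mean RPKM over the genomic span ran in the order *Ucp2* (7.70 ± 0.83, SD, n = 2), *Acadvl* (7.66 ± 0.56), *Pdk4* (2.80 ± 0.41), *Hadha* (1.94 ± 0.13), *Cpt2* (1.35 ± 0.08), *Cpt1a* (0.619 ± 0.036), *Acadm* (0.549 ± 0.042), *Ppara* (0.0272 ± 0.00099) and *Ppargc1a* (0.0220 ± 0.0032). *Ucp2* and *Acadvl* did not differ beyond their spread at 2.8 mM, since their libraries overlapped, while at 16.8 mM both libraries of *Ucp2* lay above both of *Acadvl*. *Pdk4* and *Hadha* were apart at 2.8 mM and overlapped at 16.8 mM, and *Ppara* and *Ppargc1a* changed places. *Ucp2* lay above 96.0% and *Acadvl* above 95.0% of the gene symbols in the table by mean RPKM over all 4 libraries. The receptor *Ppara* lay above 30.7% of them and *Ppargc1a* above 32.9%. Were all reads exonic, the level per kilobase of exon at 2.8 mM would be highest for *Acadvl* (18.5), *Hadha* (17.8) and *Ucp2* (16.8), followed by *Cpt2* (11.2), *Pdk4* (10.4), *Cpt1a* (8.99), *Acadm* (5.98), *Ppara* (0.534) and *Ppargc1a* (0.338), so the 2 regulators stood last by either length.

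**Figure D1:**
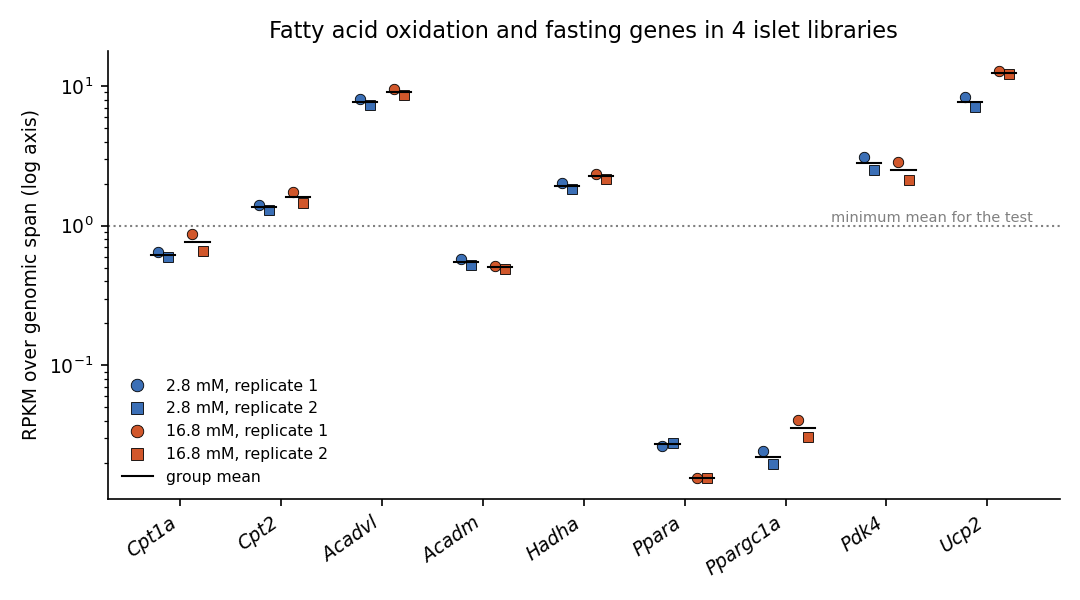
RPKM over the genomic span (log axis) of the 9 genes in each of the 4 islet libraries, with points for libraries, short bars for group means and a dotted line at the minimum mean of 1 RPKM for the test. Both 16.8 mM libraries of *Ucp2* (12.2 and 12.8 RPKM) lie above both 2.8 mM libraries (7.11 and 8.28 RPKM), and the regulators *Ppara* and *Ppargc1a* lie far below the enzymes.

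Promoters of 4 genes are shown, since PPARA with its partner RXR binds 2 copies of the hexamer AGGTCA 1 base apart and 3 of the 9 genes held that hexamer on either strand (TGACCT on the other) within the 300 bases around the start. *Ucp2* is shown as the gene that passed the test. Each line gives the 250 bases before the RefSeq start site in build GRCm38.p6, 5′ to 3′ on the strand of the gene, with the hexamer in capitals. The regions are chr19:3323051-3323300 on the plus strand for *Cpt1a*, chr11:70015429-70015678 on the minus strand for *Acadvl*, chr3:153944644-153944893 on the minus strand for *Acadm* and chr7:100493108-100493357 on the plus strand for *Ucp2*.
Cpt1a: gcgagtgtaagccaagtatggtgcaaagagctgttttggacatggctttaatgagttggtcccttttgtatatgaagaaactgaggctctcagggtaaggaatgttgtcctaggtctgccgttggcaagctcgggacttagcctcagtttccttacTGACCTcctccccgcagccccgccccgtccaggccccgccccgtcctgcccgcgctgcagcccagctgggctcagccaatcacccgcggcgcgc
Acadvl: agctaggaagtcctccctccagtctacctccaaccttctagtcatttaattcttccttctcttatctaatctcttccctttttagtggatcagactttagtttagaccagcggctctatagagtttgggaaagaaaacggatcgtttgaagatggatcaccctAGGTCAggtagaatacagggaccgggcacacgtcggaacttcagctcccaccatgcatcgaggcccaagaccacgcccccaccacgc
Acadm: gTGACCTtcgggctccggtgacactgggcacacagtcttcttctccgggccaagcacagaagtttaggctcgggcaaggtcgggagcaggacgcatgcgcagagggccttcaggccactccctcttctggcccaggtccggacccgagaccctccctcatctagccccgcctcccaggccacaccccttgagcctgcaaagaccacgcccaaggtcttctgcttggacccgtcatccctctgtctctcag
Ucp2: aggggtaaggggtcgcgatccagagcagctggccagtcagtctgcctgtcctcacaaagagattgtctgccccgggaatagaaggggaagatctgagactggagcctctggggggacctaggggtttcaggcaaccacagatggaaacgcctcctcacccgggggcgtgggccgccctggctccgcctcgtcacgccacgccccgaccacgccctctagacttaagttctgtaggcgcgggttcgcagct
The hexamer began 94 bases before the start in *Cpt1a*, 87 in *Acadvl* and 249 in *Acadm*. It was present in 16.3% of all 32851 RefSeq promoter windows of that length. The paired form AGGTCANAGGTCA (TGACCTNTGACCT on the other strand) was present in 0 of the 9 windows and in 0.0396% of all windows. Only exact matches within these windows were counted, so inexact copies and sites elsewhere in the genes were not examined. The 3 holders of the single hexamer had higher values (*Cpt1a*, *Acadvl*) and lower values (*Acadm*) at 16.8 mM, and *Ucp2* held no hexamer in this window.

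Of the 9 genes, 5 passed the minimum of 1 RPKM (*Cpt2*, *Acadvl*, *Hadha*, *Pdk4* and *Ucp2*), and 1 of these, *Ucp2*, was higher at 16.8 mM glucose at an adjusted p under 0.05. None was lower (0 also at an unadjusted p under 0.05, and 1, *Ppara*, by voom, the form of limma for read counts, on reads reconstructed from the RPKM). Among all entries tested, 33.4% were called, 10.7% as higher and 22.8% as lower. With libraries centred on their medians the shares were 21.1% higher and 26.7% lower, and under this scaling *Cpt2*, *Acadvl* and *Hadha* were also called. By the values alone, without a test, the groups did not overlap for 8 of the 9 genes, 6 of them higher and 2 lower at 16.8 mM. Over all genes with a value above 0, 21.4% were higher and 37.9% lower without overlap. Replicate 1 was above replicate 2 in both groups for 8 of the 9 genes, as it was for 52.2% of all genes and 74.3% of the entries tested.

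The carnitine shuttle genes had higher values at 16.8 mM glucose but did not pass the test. *Cpt1a*, the liver-type isoform of the regulated outer membrane step (chr19:3323301-3385732, plus strand, NCBI build 37), had 0.644 and 0.594 RPKM at 2.8 mM and 0.869 and 0.662 RPKM at 16.8 mM. Both 16.8 mM libraries lay above both 2.8 mM libraries, by 2.7% at the nearest pair, and the ratio of means was 1.24. The 2 libraries at 16.8 mM differed from each other by a factor of 1.31, more than the groups did.
*Cpt1a* was under the minimum although its span of 62432 bases, of which 6.89% is exonic, gathered an estimated 1927 to 3294 reads per library. On the reconstructed reads, tested with voom over 17486 entries, its log2 fold change was 0.30 (SE 0.12, adjusted p 0.052), and without a minimum in limma it was 0.17 (SE 0.11, adjusted p 0.39). *Cpt2*, the inner membrane enzyme (chr4:107576586-107596215, minus strand), had 1.41 and 1.30 RPKM at 2.8 mM and 1.73 and 1.46 RPKM at 16.8 mM. The groups were apart by 3.46% at the nearest pair, and the log2 fold change was 0.17 (SE 0.09, adjusted p 0.19).

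The isoforms of the outer membrane step had no tested value in limma, since both were under the minimum. *Cpt1b*, the muscle-type isoform, had 0.197, 0.181, 0.291 and 0.223 RPKM in low replicates 1 and 2 and high replicates 1 and 2. It lies wholly within the annotated span of *Chkb* on the same strand, so its value is uncertain. *Cpt1c*, the brain-type isoform, had 0.758, 0.701, 0.838 and 0.702 RPKM, and its groups overlapped. By voom neither was called (log2 fold change 0.44 with adjusted p 0.14 for *Cpt1b*, and 0.08 with adjusted p 0.66 for *Cpt1c*). *Cpt1b* lay below *Cpt1a* and *Cpt1c* in every library.

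Of the matrix enzymes, *Acadvl* and *Hadha* had higher values at 16.8 mM, and *Acadm* differed little. *Acadvl*, the very-long-chain acyl-CoA dehydrogenase (chr11:69823685-69828913, minus strand), had 8.06 and 7.26 RPKM at 2.8 mM and 9.51 and 8.66 RPKM at 16.8 mM. The groups did not overlap, with 7.4% between the nearest libraries, and the log2 fold change was 0.23 (SE 0.12, adjusted p 0.16). Of its span 40.5% is shared with *Dvl2* on the other strand, and the strand setting of the counting is not given in the sources used here. *Dvl2* itself had 1.77 and 1.69 RPKM at 2.8 mM and 1.36 and 1.20 RPKM at 16.8 mM, so its values moved opposite to those of *Acadvl*. The microRNA gene *Mir324*, also on the other strand, covers 1.7% of the span and had 5.83 and 9.18 RPKM at 2.8 mM and 11.4 and 9.84 RPKM at 16.8 mM, the direction of *Acadvl*.
*Hadha*, the alpha subunit of the trifunctional protein that carries out the later steps on long chains (chr5:30444841-30481702, minus strand), had 2.03 and 1.84 RPKM at 2.8 mM and 2.34 and 2.17 RPKM at 16.8 mM. The groups were apart by 6.91%, and the log2 fold change was 0.18 (SE 0.09, adjusted p 0.16). Its span shares 78 bases with *Fam59b* on the other strand, for which no value was found under that symbol. *Acadm*, the medium-chain dehydrogenase (chr3:153585321-153607596, minus strand), had 0.579 and 0.520 RPKM at 2.8 mM and 0.518 and 0.488 RPKM at 16.8 mM. Its groups were next to each other, with a gap of -0.327% at the nearest pair, and by voom on an estimated 552 to 753 reads the log2 fold change was -0.13 (SE 0.13, adjusted p 0.45). Close relatives did not share the higher values. *Acadl*, the long-chain dehydrogenase, had 3.45 and 3.01 RPKM at 2.8 mM and 2.63 and 2.32 RPKM at 16.8 mM, opposite to *Acadvl*. Its log2 fold change was -0.33 (SE 0.10, adjusted p 0.051 in limma and 0.0054 by voom). *Hadhb*, the beta subunit of the trifunctional protein, overlapped between the groups (0.05, SE 0.09, adjusted p 0.68 in limma).

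The regulators *Ppara* and *Ppargc1a* were near the floor of the table and pointed in opposite directions. *Ppara*, the fatty acid receptor (chr15:85565413-85633249, plus strand), had 0.0265 and 0.0279 RPKM at 2.8 mM and 0.0155 RPKM in both libraries at 16.8 mM. The groups did not overlap, with a gap of -41.5% from the lower 2.8 mM library, the ratio of means was 0.57, and the reads behind these values were an estimated 104 and 97 against 63 and 53. *Ppargc1a*, the coactivator (chr5:51845488-51958964, minus strand), had 0.0242 and 0.0197 RPKM at 2.8 mM and 0.0407 and 0.0308 RPKM at 16.8 mM, from an estimated 141, 102, 246 and 156 reads. Its 16.8 mM libraries were both higher, by 27.3% at the nearest pair, with a ratio of means of 1.63.
Among 2946 genes with a mean between 0.01 and 0.05 RPKM, 26.3% had a ratio of means over 1.5 and 21.5% one under the inverse of 1.5, so ratios of this size were common at this level. By voom, *Ppara* was lower (log2 fold change -0.80, SE 0.25, adjusted p 0.018) and *Ppargc1a* higher (0.70, SE 0.22, adjusted p 0.016), in a test that called 28.7% of its entries lower and 13.5% higher. In limma without a minimum, which called 6.17% of its entries lower and 2.96% higher, the adjusted p was 0.036 for *Ppara* and 0.17 for *Ppargc1a*, with log2 fold changes of -0.03 and 0.04 on log2(RPKM + 0.5). Exons make up 5.09% of the span of *Ppara* and 6.49% of that of *Ppargc1a*, and whether their reads were exonic or intronic was not tested.

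The relatives of the regulators were measured beside them. *Ppard*, the widely expressed PPAR, had 0.343 and 0.339 RPKM at 2.8 mM and 0.492 and 0.446 RPKM at 16.8 mM, and by voom it was higher (log2 fold change 0.46, SE 0.10, adjusted p 0.0021). *Pparg*, the receptor of adipocyte differentiation, had 0.307 and 0.349 RPKM at 2.8 mM and 0.104 and 0.108 RPKM at 16.8 mM. It was lower by voom (log2 fold change -1.63, SE 0.11, adjusted p 1.1e-08), on an estimated 2319 and 2341 reads against 816 and 707.
In both groups the level of *Ppara* was under those of *Ppard* and *Pparg*, and *Ppara* and *Pparg* were lower at 16.8 mM while *Ppard* was higher. Of 5 adipocyte markers, *Adipoq*, *Plin1*, *Lep* and *Retn* were under 0.05 RPKM in all 4 libraries, and *Cfd* had 0 and 0.149 RPKM at 2.8 mM and 0.0912 and 0.0218 RPKM at 16.8 mM. *Ppargc1b*, the sister coactivator, had 0.0483, 0.0572, 0.0396 and 0.05 RPKM in low replicates 1 and 2 and high replicates 1 and 2. Its groups overlapped with each other and, at 16.8 mM, its libraries overlapped those of *Ppargc1a*, and voom gave a log2 fold change of -0.24 (SE 0.18, adjusted p 0.29).

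**Figure D2:**
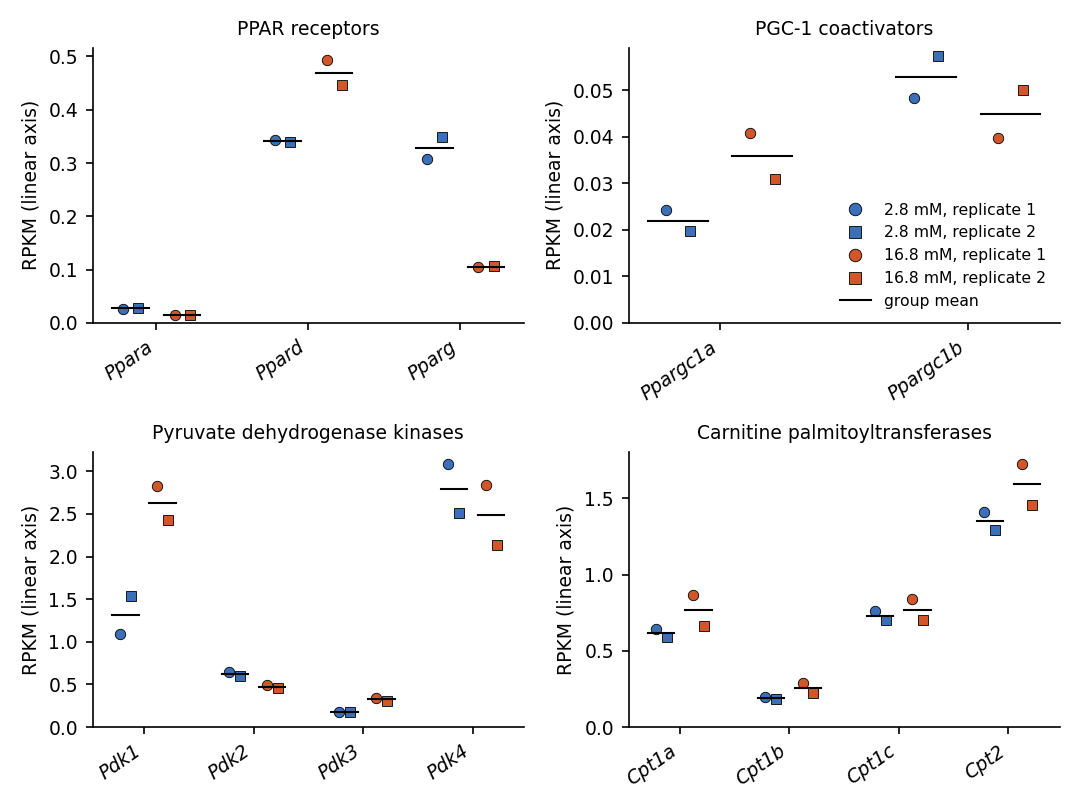
RPKM over the genomic span (linear axes) of the PPAR receptors, PGC-1 coactivators, pyruvate dehydrogenase kinases and carnitine palmitoyltransferases in each library, with points for libraries and short bars for group means. *Pparg* lies at 0.307 and 0.349 RPKM at 2.8 mM and at 0.104 and 0.108 RPKM at 16.8 mM, *Pdk1* at 1.09 and 1.54 RPKM and at 2.83 and 2.43 RPKM, and the libraries of *Pdk4* overlap between the groups.

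The fasting effector *Pdk4* did not differ between the glucose concentrations beyond the spread of the libraries. *Pdk4*, the pyruvate dehydrogenase kinase raised by fasting in muscle (chr6:5433351-5446309, minus strand), had 3.08 and 2.51 RPKM at 2.8 mM and 2.84 and 2.14 RPKM at 16.8 mM. The groups overlapped, and replicate 1 was above replicate 2 by a factor of 1.23 at 2.8 mM and 1.33 at 16.8 mM. The log2 fold change was -0.14 (SE 0.14, adjusted p 0.46), and without high glucose replicate 2 it was 0.03.
The other kinases of the family are given beside it, and differences between kinases were not tested. *Pdk1* had 1.09 and 1.54 RPKM at 2.8 mM and 2.83 and 2.43 RPKM at 16.8 mM, and it rose (log2 fold change 0.79, SE 0.13, adjusted p 0.0055, and 0.089 without a minimum). *Pdk3* had 0.178 RPKM in both libraries at 2.8 mM and 0.339 and 0.311 RPKM at 16.8 mM, and by voom it was higher (log2 fold change 0.87, SE 0.12, adjusted p 1.9e-05). *Pdk2* had 0.647 and 0.600 RPKM at 2.8 mM and 0.491 and 0.453 RPKM at 16.8 mM, and by voom it was lower (log2 fold change -0.40, SE 0.14, adjusted p 0.029). By RPKM over the genomic span, *Pdk4* had the highest mean of the 4 kinases at 2.8 mM, and at 16.8 mM its libraries overlapped those of *Pdk1*. This order depends on the lengths of the spans. Estimated reads were 1961 and 2445 at 2.8 mM and 5257 and 3777 at 16.8 mM for *Pdk1*. For *Pdk4* they were 2336 and 1689, and 2237 and 1408. The level per kilobase of exon was not computed for the other kinases.

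*Ucp2* was the 1 gene called higher among the 5 tested in limma with the deposited scaling. The inner membrane carrier (chr7:107641846-107650529, plus strand) had 8.28 and 7.11 RPKM at 2.8 mM and 12.8 and 12.2 RPKM at 16.8 mM, from an estimated 3211 to 6734 reads per library. Its lowest 16.8 mM library was 46.9% above its highest 2.8 mM library, the ratio of means was 1.62, and the log2 fold change was 0.67 (SE 0.12, adjusted p 0.0072). Without each library in turn the log2 fold change was between 0.56 and 0.77, in fits that take the lone library of a group to vary like the other group and so give no independent check of the spread. Without a minimum in limma the adjusted p was 0.056. Over the entries tested, 7.53% had a ratio of means over 1.5.
The closest relatives of *Ucp2* had few reads. *Ucp1*, the thermogenic protein of brown fat, had 0.0021, 0, 0.0142 and 0.0097 RPKM in low replicates 1 and 2 and high replicates 1 and 2, an estimated 1, 0, 7 and 4 reads. *Ucp3*, the muscle form, had 0.0115, 0.01, 0.0159 and 0.022 RPKM, an estimated 9, 7, 13 and 15 reads. Neither was tested.

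**Figure D3:**
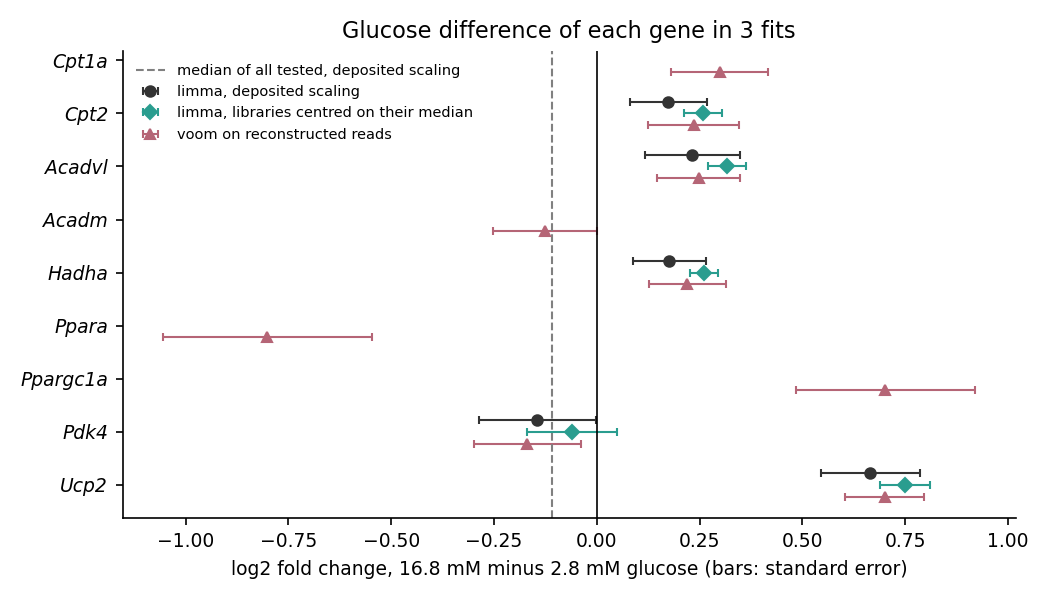
Log2 fold change (16.8 mM minus 2.8 mM glucose, bars for the standard error) of the 9 genes in limma with the deposited scaling, in limma with libraries centred on their medians and in voom on reconstructed reads, with a dashed line at -0.11, the median of all entries tested. *Ucp2* lies between 0.67 and 0.75 in the 3 fits, *Cpt2*, *Acadvl* and *Hadha* lie between 0.17 and 0.32, and *Pdk4* lies on the other side of 0 in all 3; 4 genes have a voom value alone because they were under the minimum for limma.

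The call of the shuttle and matrix enzymes turned on the scaling of the libraries. With centred libraries, the log2 fold changes were 0.26 for *Cpt2* (SE 0.05, adjusted p 0.018), 0.32 for *Acadvl* (SE 0.05, adjusted p 0.012) and 0.26 for *Hadha* (SE 0.03, adjusted p 0.0091), so all 3 were called higher. *Ucp2* was at 0.75 (SE 0.06, adjusted p 0.0048), and *Pdk4*, at -0.06 (adjusted p 0.68), was not called. Relative to the median log2 ratio of all entries tested, the ratio of mean RPKM was higher by 0.37 for *Cpt2*, 0.38 for *Acadvl*, 0.35 for *Hadha* and 0.83 for *Ucp2*, and *Pdk4* was at -0.03. The lower value of *Pdk4* at 16.8 mM was thus of the size of the shift of the entries tested. The 4 genes under the minimum were not among the entries that gave this median. Against it *Cpt1a* was higher by 0.44 and *Acadm* by 0.01, and whether genes at their level shared the shift was not tested. *Ppara* and *Ppargc1a* were not set against it, since genes with a mean between 0.01 and 0.05 RPKM did not share the shift.

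The other genes of the pathway were followed in 9 lists of 145 genes. Of these, 59 passed the minimum, 7 were higher (11.9%), 11 were lower (18.6%) and 41 were not called, with a median log2 fold change of -0.01. All entries tested gave 10.7% higher, 22.8% lower and a median of -0.11. Among carnitine shuttle and fatty acid activation genes, 3 of 6 tested were higher and none lower (0 also at an unadjusted p under 0.05, and 4 of 19 by voom), with a median of 0.22. Those higher were *Fabp5*, a fatty acid carrier of the cytosol (1.61 and 1.57 RPKM at 2.8 mM against 3.67 and 3.02 at 16.8 mM, log2 fold change 0.87, SE 0.11, adjusted p 0.0017), *Slc27a4*, a fatty acid transporter (0.33, adjusted p 0.032), and *Dbi*, an acyl-CoA binding protein (0.33, adjusted p 0.019). Outside the naming rule, the 4 lower by voom were *Acsl1* (log2 fold change -0.66), *Acsl3* (-0.98), *Acsl4* (-0.74) and *Slc27a1* (-0.35). All 4 were under the minimum, and by voom 3 genes of this list were higher. Over all its entries voom called 13.5% higher and 28.7% lower.

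The list of mitochondrial beta-oxidation genes beyond the 9 had 1 of 12 tested higher and 3 lower, with 8 not called and a median of -0.05. All entries tested gave 10.7% higher and 22.8% lower. This list also holds genes of branched-chain amino acid and propionate breakdown, such as *Acadsb*, *Ivd*, *Pcca* and *Mut*. Its counts are therefore not of fatty acid oxidation alone. *Echs1*, the short-chain enoyl-CoA hydratase, had 4.09 and 3.49 RPKM at 2.8 mM and 2.50 and 2.33 RPKM at 16.8 mM (log2 fold change -0.56, SE 0.10, adjusted p 0.0082). *Acadsb*, the dehydrogenase of short branched chains, fell from 1.77 and 1.67 RPKM to 1.22 and 1.18 RPKM (log2 fold change -0.39, adjusted p 0.011). It lies within the annotated span of *Fgfr2*, which is on the other strand and had at most 0.0087 RPKM.
*Mut*, the methylmalonyl-CoA mutase of odd-chain and amino acid breakdown, had a log2 fold change of -0.41 (adjusted p 0.012, and 0.061 with libraries centred), and *Etfb*, a subunit of the electron carrier that serves the dehydrogenases, had 0.38 (adjusted p 0.038) in a RefSeq non-coding transcript, its entry with the highest mean. By voom, 1 of the 24 genes on this list was higher and 11 were lower, in a test that called 13.5% of all its entries higher and 28.7% lower. Of those lower by voom, *Acadsb*, *Acad8*, *Pcca*, *Pccb*, *Mut* and *Mcee* belong to amino acid and propionate breakdown. The others were *Acadl*, *Acad10*, *Echs1*, *Eci1* and *Acaa2*.

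Peroxisomal genes had 1 of 10 tested higher and 3 lower, with 6 not called and a median of 0.0. All entries tested gave 10.7% higher and 22.8% lower. *Abcd3*, a transporter of fatty acyl-CoA into the peroxisome, rose from 1.69 and 1.60 RPKM to 2.40 and 2.37 RPKM (log2 fold change 0.42, SE 0.08, adjusted p 0.009). *Pex11a*, a peroxisome proliferation factor and known PPARA target, fell from 1.58 and 1.73 RPKM to 0.924 and 0.793 RPKM (log2 fold change -0.67, SE 0.09, adjusted p 0.0022). The thiolase *Acaa1a* had a log2 fold change of -0.64 (adjusted p 0.0038) and *Acaa1b* one of -0.45 (adjusted p 0.011). These near-identical copies may share reads, so the value of each is uncertain.

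Among PPAR and PGC-1 regulators, 0 of 7 tested were higher (0 also at an unadjusted p under 0.05) and 3 were lower, with a median of -0.20. All entries tested gave 10.7% higher and 22.8% lower. By voom 1 of 22 was higher and 10 were lower, in a test that called 13.5% of its entries higher and 28.7% lower. *Crtc2*, a CREB coactivator of the fasting response, fell from 3.79 and 3.61 RPKM to 2.58 and 2.45 RPKM (log2 fold change -0.48, SE 0.09, adjusted p 0.0082). *Tfam*, the transcription factor of mitochondrial DNA, had a log2 fold change of -0.32 (adjusted p 0.033) and *Med1*, a mediator subunit that binds nuclear receptors, -0.26 (adjusted p 0.049). Of the PPAR target and lipid droplet genes 4 were tested, and *Fgf21*, a fasting hormone best known from liver, was the 1 called. It fell from 1.41 and 1.83 RPKM to 0.463 and 0.406 RPKM (log2 fold change -1.17, SE 0.11, adjusted p 0.0006), on an estimated 131 and 150 reads against 45 and 33. *Fgf21*, *Pex11a*, *Mut* and *Mpc2* had a mean under 1 RPKM at 16.8 mM and passed the minimum through the 2.8 mM libraries, so a lower value at 16.8 mM was built into their selection.

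The remaining lists held few calls. In the pyruvate dehydrogenase switch, *Pdk1* was higher and *Mpc2*, a subunit of the mitochondrial pyruvate carrier, lower (log2 fold change -0.29, adjusted p 0.031), with 6 of 8 tested not called. In malonyl-CoA control of CPT1, *Acly*, which makes cytosolic acetyl-CoA, rose from 20.9 and 19.9 RPKM to 28.8 and 29.0 RPKM (log2 fold change 0.49, SE 0.12, adjusted p 0.02), and the other 7 tested were not called. None of the 2 ketone body genes and none of the 2 members of the uncoupling protein family that were tested was called (1 and 0 at an unadjusted p under 0.05). By voom 2 of 5 were called in each list, in a test that called 42.3% of all its entries.
Of the 18 pathway genes named by their calls, 11 kept the call without any 1 library. Without a minimum RPKM, which tests more entries, 9 of the 18 lost it: *Acaa1b*, *Echs1*, *Etfb*, *Med1*, *Mpc2*, *Mut*, *Pdk1*, *Slc27a4* and *Tfam*. *Med1* also lost it without the variance trend (adjusted p 0.072), with 0.1 RPKM added (0.051) and with 1 entry per gene (0.054), and *Mpc2* without the trend (0.052). *Acly* lost it without high replicate 1 or high replicate 2 (adjusted p 0.093 and 0.12), and *Dbi* without low replicate 1 (0.1), low replicate 2 (0.056) or high replicate 2 (0.056). *Slc27a4* lost it without low replicate 1 (0.079), low replicate 2 (0.1) or high replicate 1 (0.11), and *Etfb* without low replicate 2 (0.25) or high replicate 2 (0.052). Without low replicate 1, the adjusted p was 0.25 for *Med1*, 0.16 for *Mpc2* and 0.2 for *Tfam*, and without high replicate 2 it was 0.2, 0.079 and 0.12. *Med1* also lost it without low replicate 2 (0.095).

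**Figure D4:**
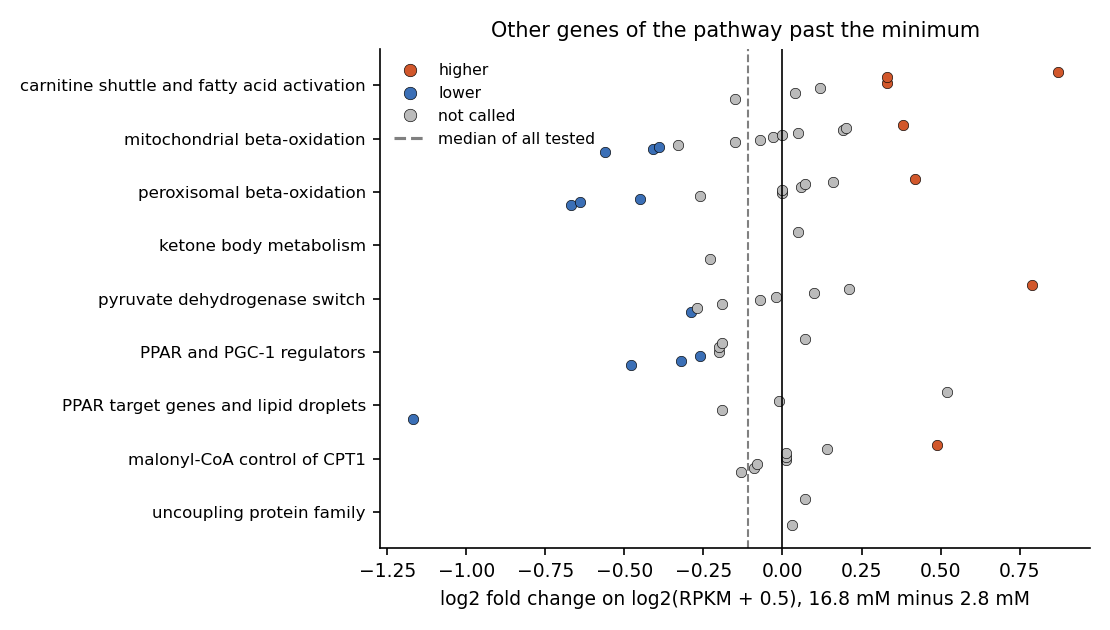
Log2 fold change on log2(RPKM + 0.5), 16.8 mM minus 2.8 mM glucose, of the 59 pathway genes that passed the minimum, 1 point per gene in its list (height within a list only separates points), coloured by call, with a dashed line at the median of all entries tested (-0.11). The coloured points are the 7 genes called higher and the 11 called lower, *Fgf21* is farthest to the left at -1.17 and *Fabp5* farthest to the right at 0.87.

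Markers of other cells that an islet preparation can hold were measured beside these genes. Summed RPKM of 6 alpha cell markers was 2217 and 1698 at 2.8 mM against 2172 and 1538 at 16.8 mM. Replicate 1 was above replicate 2 in both groups, as it was for 8 of the 9 genes and 74.3% of the entries tested. Delta and PP cell markers summed to 2060 and 1593 against 2571 and 2099. Macrophage markers summed to 9.89 and 7.85 against 12.0 and 9.19, endothelial markers to 2.95 and 2.14 against 3.56 and 2.54, and stromal markers to 4.11 and 2.34 against 3.09 and 3.18. The adipocyte list summed to between 0.0164 and 0.203 RPKM. Called higher were 6 of 8 beta cell markers, which moved in the same direction as *Ucp2*, and 1 of 2 tested macrophage markers, *Cd14*. *Cd14* had a mean of 0.918 RPKM at 2.8 mM and 1.91 RPKM at 16.8 mM. It passed the minimum through the 16.8 mM libraries, so a higher value at 16.8 mM was built into its selection. None of the 10 acinar and duct markers tested was called in limma, but all 10 had a log2 fold change above 0 (median 1.08, 6 at an unadjusted p under 0.05), and by voom 11 of 11 were higher, as were 4 of 6 endothelial markers. These also moved in the direction of *Ucp2*, and the part of the cell makeup in the values of the 9 genes was not tested.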

How the data were processed

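RNA of 4 libraries of pooled mouse islets was compared, 2 at 2.8 mM and 2 at 16.8 mM glucose, grouped by their labels. The authors deposited RPKM values per RefSeq transcript and lncRNA. The submitters' processing notes name STAR, bedtools, DESeq and mm9 (NCBI build 37), and the strand setting is not given in the sources used here. Depth was recovered as the library size at which low values (under 25 reads) were whole reads over the GENCODE span within 0.05 reads, which held for 67.2% to 68.6% of them, against 7.1% to 8.0% at other depths and 16.7% to 17.8% over exons. Reads were reconstructed from RPKM, the span of the longest annotated transcript and depth for the 88.1% of entries with a span. They are estimates and carry counting error of their own.

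Repeated entries of a gene with the same values counted once. The test was limma 3.58.1 on entries reaching a mean of 1 RPKM with log2(RPKM + 0.5) (variance trend, two-sided, Benjamini-Hochberg over all entries tested, 0.05) in R 4.3.3. This test was tried on simulated data. Python 3.11.15, pandas 2.3.3, numpy 2.4.6 and matplotlib 3.10.9 did the rest. Alternatives were voom on reconstructed reads (mean of at least 20), quantile normalization, median centring, no minimum or 1 RPKM in every library, 0.1 or 1 RPKM added, no trend, 1 entry per gene, the replicate block, the other entry of *Ppara* and leaving out each library.

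The 9 genes, the pathway lists and the marker lists were chosen with earlier results of these data known. Named were the 9 genes, their closest relatives, genes that overlap them and, of each list, up to 3 called genes with the largest rise and 3 with the largest fall. Promoter sequences are RefSeq's (GRCm38.p6), and all 9 genes matched. Gene positions are GENCODE's on NCBI build 37, and the builds were not mixed.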

Additional observations from a re-analysis of the deposited data

How the results depend on the processing

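Precision is limited by the 2 libraries per group and, for *Ppara* and *Ppargc1a*, by few reads, and log2 fold changes of *Ppara* and *Ppargc1a* in limma depend on the added value. Fits without 1 library take the lone library of a group to vary like the other group. The call of *Ucp2* was lost in 1 of the alternatives run, without a minimum (log2 fold change 0.67, adjusted p 0.056), where *Ppara* was the 1 gene of the 9 called. Quantile normalization called 4 of the 9 genes and 47.4% of all entries, with log2 fold changes of 0.26 for *Cpt2*, 0.25 for *Acadvl* and 0.26 for *Hadha*, and centring on the median also called 4, and 47.9% of all entries (0.26, 0.32 and 0.26). Those 2 scalings gave 1576 and 1662 entries higher in place of 838, and 29 and 30 pathway genes past the threshold in place of 18. Voom on reconstructed reads tested more entries and called 7388 (42.3%) in place of 2628 (2363 higher and 5025 lower), 3 of the 9 genes and 60 pathway genes. Its log2 fold changes were 0.30 for *Cpt1a*, -0.13 for *Acadm*, -0.80 for *Ppara* and 0.70 for *Ppargc1a*. With 0.1 RPKM added *Ppara* was at -0.14 and *Ppargc1a* at 0.15, and with 1 RPKM added at -0.02 and 0.02. Leaving out 1 library at a time gave 1059 to 1865 entries lower, in place of 1790 (the lowest without high replicate 2), and moved *Pdk4* between -0.32 and 0.03, where it reversed without high replicate 2. The cause of these changes was not tested, beyond the smaller or larger sets tested.

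The labels number the libraries 1 and 2 in each group and say nothing more of a pairing. Libraries with the same number deviated together (correlation 0.31 over the 2 pairs). With the replicate block in limma 4067 entries (51.7%) passed, 2835 of them lower, with 29 pathway genes and 3 of the 9 genes, *Acadvl* (0.23, adjusted p 0.036), *Hadha* (0.18, adjusted p 0.04) and *Ucp2* (0.67, adjusted p 0.012). Voom with the block called 10025 entries (3266 higher, 6759 lower), 86 pathway genes and 8 of the 9 genes: *Cpt1a* (0.30), *Cpt2* (0.24), *Acadvl* (0.25), *Hadha* (0.22), *Ppara* (-0.80), *Ppargc1a* (0.70), *Pdk4* (-0.17) and *Ucp2* (0.70), with *Acadm* at -0.13 (adjusted p 0.21).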

Other observations

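Some pathway genes outside the naming rule, chosen here after their values were seen, also had values apart between the glucose concentrations. Among lipid droplet and PPAR target genes, *Plin2*, which coats lipid droplets, had 2.32 and 1.78 RPKM at 2.8 mM and 3.83 and 2.56 RPKM at 16.8 mM. Its log2 fold change was 0.52 (SE 0.18, adjusted p 0.062 in limma and 0.0042 by voom). *Angptl4*, an inhibitor of lipoprotein lipase induced by fatty acids, had 0.0794 and 0.112 RPKM at 2.8 mM and 0.420 and 0.212 RPKM at 16.8 mM, an estimated 36 and 46 against 199 and 84 reads (voom log2 fold change 1.69, SE 0.35, adjusted p 0.00095). The monoglyceride lipase *Mgll* was higher (0.88, adjusted p 0.0021 by voom) and *Abhd5*, the activator of the triglyceride lipase ATGL, lower (-0.67, adjusted p 0.00032 by voom). All of these except *Plin2* were under 1 RPKM.

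Of the other genes that bear on malonyl-CoA and uncoupling, *Prkaa2*, a catalytic subunit of the energy sensor AMPK, had 0.202 and 0.210 RPKM at 2.8 mM and 0.117 and 0.112 RPKM at 16.8 mM (voom log2 fold change -0.84, SE 0.12, adjusted p 4.9e-05). The other catalytic subunit, *Prkaa1*, had 2.02 and 1.92 RPKM against 2.05 and 1.94 RPKM and was not called. *Slc25a27*, a carrier related to the uncoupling proteins, had 0.864 and 0.889 RPKM at 2.8 mM and 0.499 and 0.412 RPKM at 16.8 mM (voom log2 fold change -0.94, SE 0.12, adjusted p 1.5e-05), the direction opposite to that of *Ucp2*.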
